A study of Xenopus laevis with 8 samples.

Results

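The SoxB1 genes sox1, sox2 and sox3 were measured in separate explants of Xenopus laevis ectoderm, some pushed towards neural and others towards neural crest fates. These genes were chosen with earlier results of these data known. Every probe set with sox1, sox2 or sox3 as its only gene symbol was taken, and none was left out for its values. Either the long (.L) or short (.S) copy of the frog's duplicated genome counted. This gave 6 probe sets for 4 genes, out of 32539 probe sets that carried 11303 gene symbols. They were 1 probe set for sox1.S, 3 for sox2.L, 1 for sox3.L and 1 for sox3.S. The 3 sox2.L probe sets measure the same message and are not independent of each other. All 6 passed the filter on dim signals.

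SoxB1 proteins are transcription factors with a DNA-binding HMG box. They activate genes of neural progenitors and hold these cells back from differentiating into neurons, and in Xenopus sox2 and sox3 mark the early neural plate. The neural plate forms where BMP signalling is blocked in the ectoderm. Cells at its border that also receive Wnt signals form the neural crest, in which the SoxE genes sox8, sox9 and sox10 act.

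The samples were animal caps, the ectoderm cut from the top of the blastula, which forms epidermis when left alone. Embryos received their injections in the animal pole at the 2-cell stage, and caps were cut at stage 9 and grown in culture to stage 15. The 4 groups of 2 arrays were uninjected caps, caps with mRNA for Chordin (a secreted antagonist of BMP), caps with mRNAs for Chordin and Wnt3a (a secreted Wnt ligand), and caps with both mRNAs and an Lrig3 morpholino. Morpholinos are antisense oligonucleotides used to block the translation or splicing of a message. Lrig3 spans the membrane and carries leucine-rich repeats and immunoglobulin-like domains. Chordin was thus present in 3 of the 4 groups and Wnt3a in 2. Caps with Wnt3a alone, with the morpholino alone or with a control morpholino are not among these samples, and uninjected caps had received nothing. Nothing in the labels says that the arrays of a group came from separate embryo batches. The p-values cover the spread between these samples alone, and that spread may be technical.

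Each value is a linear signal from an Affymetrix-type array. The background of an array was taken as the brightest of 23 negative control probe sets on it, and lay between 19.5 and 30.8. Array medians ran from 95.6 to 114, and 68.6% to 76.0% of probe sets exceeded the background. Changes are on the scale of log2(signal + 5.22), which understates the change of dim genes. They were tested with limma across 22000 probe sets, and a change was called at a Benjamini-Hochberg adjusted p below 0.05. With 2 arrays against 2, a permutation test cannot go below p = 0.333, so every p here comes from the limma fit. Signals of different probe sets cannot be compared as levels. In bulk tissue, fewer cells of a type and less RNA per cell cannot be told apart.

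The signals of the genes whose mRNAs were injected matched the group labels. The chrd.1.S signal, for chordin, was 1.66 and 1.34 in uninjected caps and 468 and 771 in Chordin caps. It was lower with Wnt3a added, at 100 and 291, and in morpholino caps, at 156 and 159. Against Chordin caps these changes were -1.78 and -1.90 (log2, limma adjusted p = 0.0991 and 0.0531). Neither was called, but the arrays did not overlap in either comparison. The part of this difference in the SoxB1 values was not tested. The wnt3a.S signal lay between 0.498 and 28.2 on the 4 arrays without that mRNA and between 10956 and 27548 on the other 4. The lrig3.S message was 741 and 756 in Chordin and Wnt3a caps and 4787 and 3002 in morpholino caps, a called rise of 2.33 ± 0.35 (log2, SE, limma adjusted p = 0.0246). It was 95.6 and 172 in uninjected caps and 3191 and 2158 in Chordin caps. Its fall with Wnt3a was called, at -1.80 (log2, limma adjusted p = 0.0305). Between morpholino and Chordin caps its change was 0.53 and was not called (limma adjusted p = 0.360). The labels do not say whether the morpholino blocks translation or splicing, so this signal does not check the knockdown.

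One array stood apart from its replicate. On replicate 1 of the morpholino caps the summed signal of 12 mesoderm and muscle markers was 9025, against 349 on replicate 2 and 196 to 828 on the other 6 arrays. The SoxB1 results that rest on morpholino caps are therefore given with and without this array. Scaling the arrays on the poly-A spike-in controls, in place of the deposited scaling, moved the median change of all probe sets from 0.03 to -0.90 (log2) when the morpholino was added and from 0.09 to 0.76 for Chordin against uninjected. The calls higher and lower over all probe sets went from 601 and 476 to 146 and 5431 in the former comparison and from 3866 and 2579 to 5772 and 725 in the latter. They went from 1346 and 1158 to 406 and 5880 for morpholino against Chordin caps, from 4172 and 3242 to 6897 and 1078 for Chordin and Wnt3a against uninjected caps, and from 4606 and 3363 to 1520 and 2194 for morpholino against uninjected caps.

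**Figure D1:**
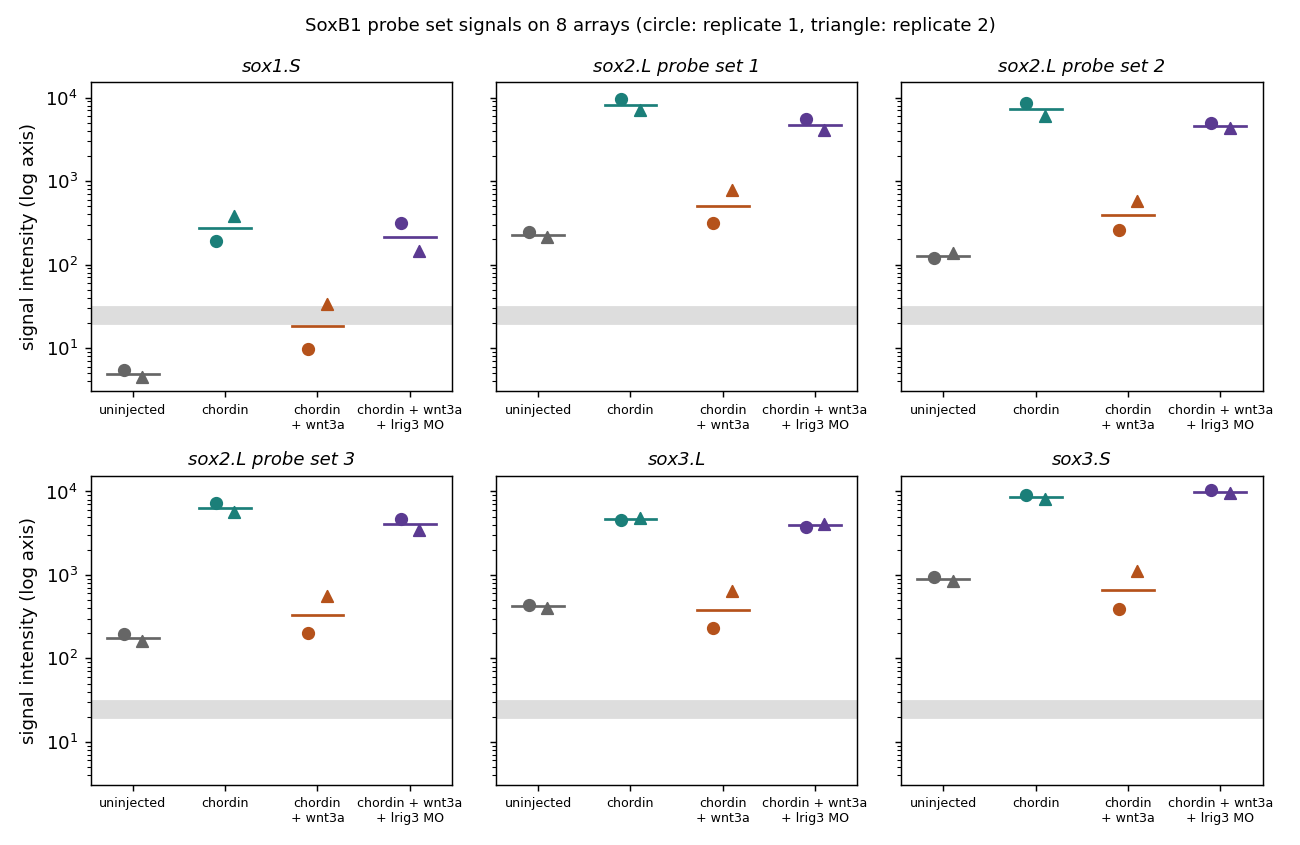
Signal of each SoxB1 probe set on the 8 arrays, on a log axis, by group. Circles are replicate 1, triangles are replicate 2, the short lines are geometric means of the 2 arrays, and the grey band is the range of the array backgrounds, 19.5 to 30.8. All 6 probe sets are high in Chordin caps and in morpholino caps, and lower in the other 2 groups.

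Chordin mRNA raised every SoxB1 gene in the caps. The sox2.L signal on the first probe set was 245 and 213 in uninjected caps and 9627 and 7027 in Chordin caps, 35.2-fold higher. The sox3.L signal was 435 and 404 in uninjected caps and 4515 and 4813 in Chordin caps, 11.0-fold higher. The sox3.S signal was 933 and 844 in uninjected caps and 8987 and 8044 in Chordin caps, 9.53-fold higher. Both copies of sox3 and the single measured copy of sox2 were therefore already above background in uninjected caps. The sox1.S message, which belongs to the SoxB1 gene usually expressed later than the other 2 in the vertebrate neural plate, was at background in both uninjected caps. Its signal there was 5.39 and 4.51, and in Chordin caps it was 192 and 385, at least 9.04-fold higher.

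All 6 probe sets were called higher with Chordin, where 17.6% of all probe sets tested were. Their 2 groups did not overlap, and 38.6% of all probe sets tested had both Chordin arrays above both uninjected arrays. The change was 4.77 ± 0.60 (log2, SE) for sox1.S, with limma's adjusted p = 0.00276. It was 5.14 ± 0.42, 5.77 ± 0.37 and 5.13 ± 0.45 on the 3 sox2.L probe sets, with limma's adjusted p between 4.05e-04 and 0.00100. It was 3.46 ± 0.42 for sox3.L and 3.25 ± 0.43 for sox3.S, with limma's adjusted p of 0.00266 and 0.00360. The median over the 6 was 4.95, beside 0.09 over all probe sets. The sox2.L changes were larger than those of either sox3 copy, but the differences between members were not tested. All 6 stayed called under each of the 16 alternatives tried.

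Adding Wnt3a to Chordin lowered every SoxB1 gene. The first sox2.L probe set went from 9627 and 7027 to 314 and 787, 16.4-fold lower. The sox3.L signal went to 228 and 640, 12.0-fold lower, and that of sox3.S to 391 and 1128, 12.7-fold lower. The sox1.S signal went from 192 and 385 to 9.65 and 34.1, 11.5-fold lower, and the first of these latter values was at background. In no case did the arrays of the 2 groups overlap. In these caps the sox2.L and sox3 probe sets remained above background on both arrays.

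All 6 probe sets were called lower, where 2.74% of all probe sets tested were. In 23.6% of all probe sets both arrays with Wnt3a lay below both Chordin arrays. The change was -3.52 ± 0.60 (log2, SE) for sox1.S with limma's adjusted p = 0.0196. It was -4.03 ± 0.42, -4.20 ± 0.37 and -4.24 ± 0.45 on the sox2.L probe sets, with limma's adjusted p between 0.00189 and 0.00385. For sox3.L it was -3.59 ± 0.42 and for sox3.S -3.67 ± 0.43, with limma's adjusted p of 0.00546 and 0.00559. The median over the 6 was -3.85, beside -0.01 over all probe sets. The sox2.L and sox3.L calls held under all 16 alternatives. The sox1.S call was lost without replicate 1 or 2 of the Chordin caps (adjusted p = 0.0585 and 0.117) and without replicate 1 of the Chordin and Wnt3a caps (0.0651), and the sox3.S call was lost without replicate 1 of the Chordin caps (0.0529).

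Adding the Lrig3 morpholino to Chordin and Wnt3a raised every SoxB1 gene. The first sox2.L probe set read 5529 and 4065, against 314 and 787 without the morpholino, 9.43-fold higher. The sox3.L signal was 3790 and 4082, 10.1-fold higher. The sox3.S signal was 10335 and 9546, 14.8-fold higher, and it was the single SoxB1 probe set with its largest signals in this group. The sox1.S signal was 311 and 147 against 9.65 and 34.1, 9.08-fold higher. With every signal below background raised to it, since 9.65 lay there, the sox1.S change was 2.81 (log2) in this step and -3.15 with Wnt3a. The arrays of the 2 groups did not overlap for any of the 6.

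All 6 probe sets were called higher, where 2.73% of all probe sets tested were. In 26.9% of all probe sets both morpholino arrays lay above both arrays of Chordin and Wnt3a caps. The change was 3.18 ± 0.60 (log2, SE) for sox1.S with limma's adjusted p = 0.0378. It was 3.24 ± 0.42, 3.55 ± 0.37 and 3.57 ± 0.45 on the sox2.L probe sets, with limma's adjusted p between 0.0168 and 0.0216. For sox3.L it was 3.34 ± 0.42 and for sox3.S 3.89 ± 0.43, with limma's adjusted p of 0.0216 and 0.0168. The median over the 6 was 3.45, beside 0.03 over all probe sets.

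The calls changed when arrays were left out. Without replicate 1 of the morpholino caps, the array with high mesoderm markers, the changes were 2.65 to 3.83 (log2) and none of the 6 was called, with limma's adjusted p between 0.0966 and 0.143. No probe set of all 22000 was called in that fit, in which 4035 had an unadjusted p below 0.05, all 6 SoxB1 probe sets among them. Without any other single array 5 of the 6 stayed called and sox1.S did not. Fitted on the 4 arrays of these 2 groups alone, none of the 6 was called (adjusted p between 0.0749 and 0.111), where 0.114% of all probe sets were called higher and 4210 had an unadjusted p below 0.05, again with the 6 SoxB1 probe sets among them. Under poly-A spike-in scaling all 6 stayed called, at 2.27 to 2.93.

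**Figure D2:**
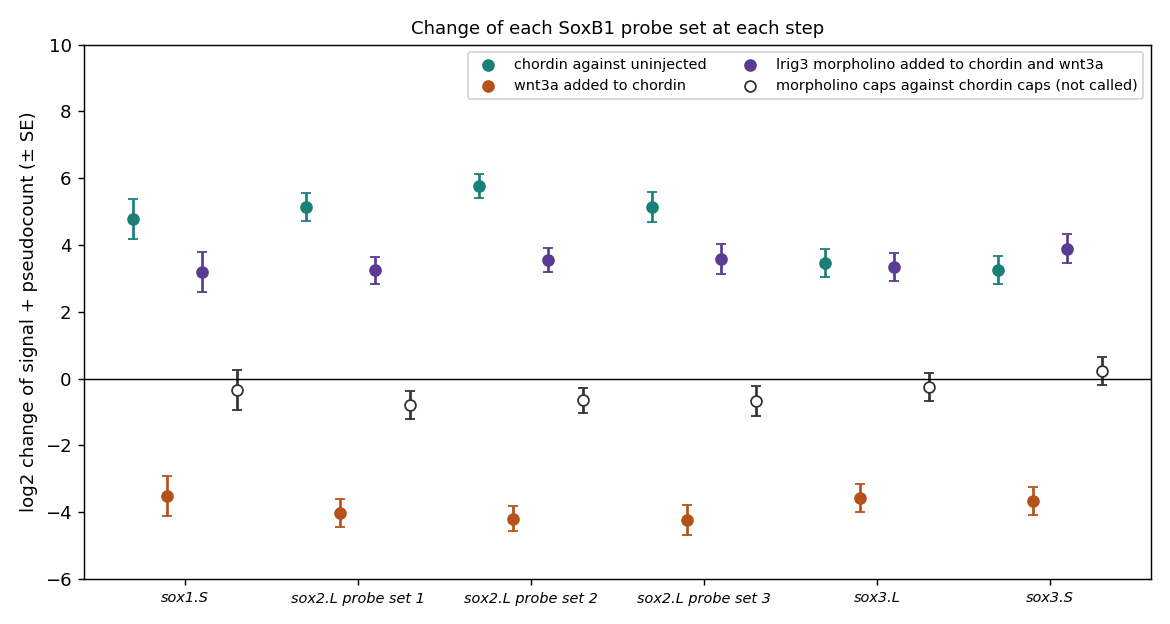
Change of each SoxB1 probe set in log2(signal + 5.22) for the 3 additions (filled points) and for morpholino against Chordin caps (open points). Each compares separate caps, and bars are 1 SE from limma. Chordin against uninjected lies between 3.25 and 5.77, Wnt3a added to Chordin between -4.24 and -3.52, and the Lrig3 morpholino added to both between 3.18 and 3.89, and the open points between -0.79 and 0.22.

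The 3 comparisons share arrays, since the Chordin caps enter the first and the second and the Chordin and Wnt3a caps enter the second and the third. A low value in Chordin and Wnt3a caps therefore enlarges both the fall and the rise. Comparisons that skip a step place the end points. Chordin and Wnt3a caps were first set against uninjected caps. One probe set of 6, the second for sox2.L, was called higher there and none lower, where 19.0% and 14.7% of all probe sets tested were. Its signal was 119 and 138 in uninjected caps and 261 and 584 in Chordin and Wnt3a caps, a change of 1.57 ± 0.37 (log2, SE, limma adjusted p = 0.0192). The first and the third sox2.L probe sets were 2.15-fold and 1.85-fold higher (adjusted p = 0.0820 and 0.168), and sox1.S gave 1.25 (0.150), with none of them called. The 95% intervals of these changes reached 2.67 (log2) for sox1.S and 2.09 and 1.96 for the first and the third sox2.L probe set. The sox3 copies gave -0.13 for sox3.L (0.838) and -0.41 for sox3.S (0.496), and for both the uninjected arrays lay between the 2 arrays of Chordin and Wnt3a caps. The arrays did not overlap for the other 4 probe sets, where 70.1% of all probe sets tested did not overlap in either direction.

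The values of this comparison moved with single arrays. Without replicate 1 of the Chordin and Wnt3a caps 4 probe sets were called higher, where 14.8% of all probe sets were in the same fit. The sox3.L change was then 0.60 (adjusted p = 0.0425). Without replicate 2 no probe set was higher and both sox3 copies were called lower, sox3.L at -0.86 (adjusted p = 0.0307) and sox3.S at -1.17 (0.0147), where 5.42% of all probe sets were called lower in the same fit. Without replicate 1 or replicate 2 of the uninjected caps none was called higher. Under poly-A spike-in scaling 4 were called higher, where 31.4% of all probe sets were.

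Morpholino caps were also set against caps with Chordin alone. None of the 6 probe sets was called, where 11.4% of all probe sets tested were called in either direction. The sox2.L signals were 5529 and 4065 against 9627 and 7027 on the first probe set, a change of -0.79 with a 95% interval of -1.78 to 0.20 (log2). The second and the third gave -0.65 (-1.53 to 0.23) and -0.67 (-1.74 to 0.39). The sox3.L change was -0.24 (-1.24 to 0.75) and that of sox3.S 0.22 (-0.80 to 1.25). The sox1.S change was -0.34 (-1.75 to 1.08). Limma's adjusted p was between 0.262 and 0.777 for the 6. These intervals hold no change. For sox1.S, sox2.L and sox3.L they also hold a fall of more than 1 on the log2 scale. For sox1.S and sox3.S they hold a rise of more than 1. The intervals therefore do not show that the groups were alike.

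The arrays of morpholino and Chordin caps overlapped for sox1.S. For all 3 sox2.L probe sets and sox3.L both morpholino arrays lay below both Chordin arrays, and for sox3.S both lay above them. In 58.3% of all probe sets tested the 2 groups did not overlap. Under poly-A spike-in scaling the 3 sox2.L probe sets were called lower, at -1.72, -1.57 and -1.60, as were 26.7% of all probe sets, and the median of all probe sets was -0.88. The sox3.S change turned to -0.70 under that scaling. Against uninjected caps all 6 probe sets were called higher in morpholino caps, by 3.21 to 5.12 (log2, limma adjusted p between 4.39e-04 and 0.00341), where 20.9% of all probe sets tested were. They were all called without replicate 1 of the morpholino caps too, at 3.27 to 5.00. Without that array the changes against Chordin caps ran from -1.02 to 0.17, again with none called.

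Ordered by mean log2 value, sox1.S and sox2.L ran from uninjected caps through Chordin and Wnt3a caps and morpholino caps to Chordin caps. The sox3.L order was Chordin and Wnt3a, uninjected, morpholino and Chordin caps. The sox3.S order was Chordin and Wnt3a, uninjected, Chordin and morpholino caps. In each order the step between the second and the third group passed the test. Between the lower pair of groups the second sox2.L probe set alone was called, and between the upper pair none was. A missing call does not show that the groups of a pair were alike.

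The Chordin and Wnt3a caps were the group in which the 2 arrays of SoxB1 signal lay farthest apart. In each of the 6 probe sets replicate 2 was above replicate 1, by 1.15 to 1.52 on the log2 scale, or 2.24 to 3.53 times in signal. The SD of this difference over all kept probe sets in that group was 0.70, and 2.74% of probe sets rose by more than 1 from replicate 1 to replicate 2. In the other groups the SoxB1 differences lay between -1.05 and 0.99. The extremes were those of sox1.S, the dimmest member.

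Other signals also differed between the 2 Chordin and Wnt3a arrays. The wnt3a.S signal was 10956 on replicate 1 and 18771 on replicate 2, and that of chrd.1.S was 100 and 291. The summed signal of 18 epidermis markers was 73593 and 32239, and that of 12 neural crest markers 55906 and 62548. The replicate with the higher SoxB1 signal thus had higher chrd.1.S and wnt3a.S signals and less epidermis signal. The part of these differences in the SoxB1 values was not tested.

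**Figure D3:**
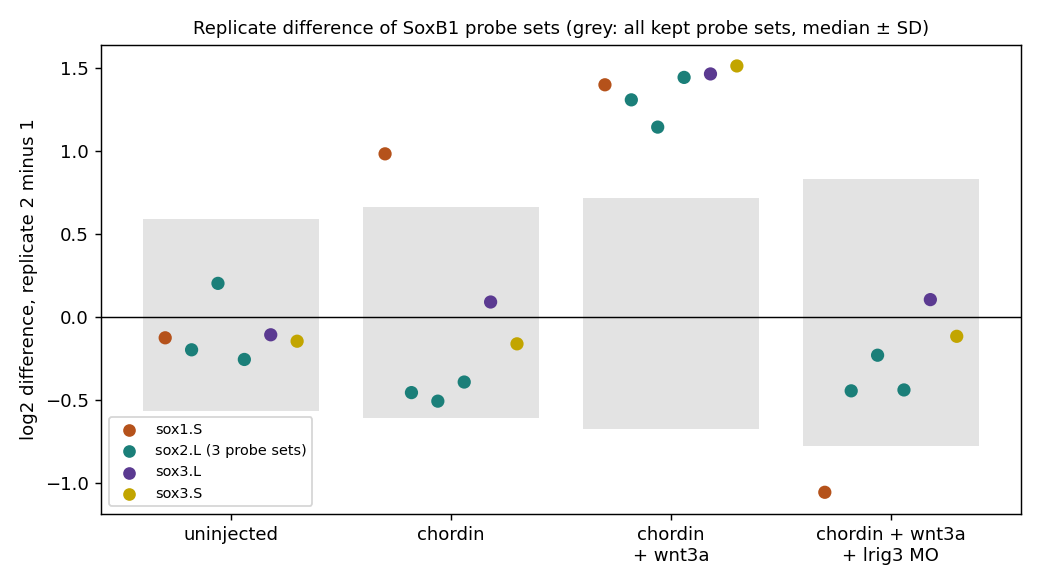
Replicate 2 minus replicate 1 of each SoxB1 probe set in log2(signal + 5.22), in each of the 4 groups. Points are probe sets, and each grey box is the median of all kept probe sets with 1 SD on either side. In Chordin and Wnt3a caps all 6 probe sets lie between 1.15 and 1.52, and in the other groups they lie between -1.05 and 0.99.

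The other Sox genes did not move as a block. Of 15 measured symbols 8 passed the filter. With Chordin 5 were called higher and none lower, where 17.6% and 11.7% of all probe sets tested were. With Wnt3a 4 were called higher and 1 lower, where 3.08% and 2.74% were. With the morpholino 1 was called higher and 3 lower, where 2.73% and 2.16% were. Their median changes were 1.15, 2.14 and -0.77 (log2). No probe set was named for the SoxB2 genes sox14 and sox21, which oppose SoxB1 activity in vertebrates.

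The SoxC gene sox11.S, which acts in neural precursors as they begin to differentiate, was called in all 3 steps in the same directions as SoxB1. Its signal was 186 and 243 in uninjected caps, 8648 and 7593 in Chordin caps, 2993 and 4178 with Wnt3a added and 10997 and 8526 with the morpholino. The changes were 5.22 ± 0.22, -1.20 ± 0.22 and 1.45 ± 0.22 (log2, SE), with limma's adjusted p of 2.02e-04, 0.0273 and 0.0260. A second sox11.S probe set gave 5.02, -1.27 and 1.54 and was called in each step. With Wnt3a added the sox11.S signals remained above those of uninjected caps, by 4.02 ± 0.22 (log2, SE, adjusted p = 1.59e-04), and the difference between this fall and those of SoxB1 was not tested. Its fall with Wnt3a was no longer called without either Chordin array, and its rise with the morpholino was no longer called without replicate 1 of those caps or without either Chordin and Wnt3a array. Neither was called under poly-A spike-in scaling.

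The SoxE genes sox8.L and sox9.L, by their brightest probe sets, were called higher with Chordin, as SoxB1 was, and higher again with Wnt3a. The Chordin changes were 1.23 and 1.69 (log2, limma adjusted p = 0.0251 and 0.00604). The other sox8.L probe sets gave 1.14 and 0.57 with Chordin and were not called (limma adjusted p = 0.0749 and 0.123). On the brightest probe set the sox8.L signal was 100.2 and 61.5 in uninjected caps and 152 and 242 in Chordin caps. It was 8798 and 8854 with Wnt3a added and 2676 and 2009 with the morpholino. Its changes in the 2 later steps were 5.49 ± 0.31 and -1.93 ± 0.31 (log2, SE), with limma's adjusted p of 3.47e-04 and 0.0270. The sox10.L signal was at background in uninjected and Chordin caps, rose at least 57.3-fold to 1197 and 1965 with Wnt3a, and was 275 and 76.4 with the morpholino, a change of -3.35 ± 0.67 (adjusted p = 0.0430). The sox9.S signal was 417 and 198 in uninjected caps, 167 and 229 in Chordin caps, 11775 and 12593 with Wnt3a and 3667 and 5503 with the morpholino. It was called with Wnt3a, at 5.92, but not with Chordin, at -0.54, nor with the morpholino, at -1.44 (adjusted p = 0.306 and 0.0748). The 3 falls with the morpholino, in sox8.L, sox9.L and sox10.L, were each lost without any 1 of the 4 arrays compared.

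The 12 neural crest markers, which include these SoxE genes, moved opposite to SoxB1 in both later steps. All 12 were called higher with Wnt3a, where 3.08% of all probe sets tested were. With the morpholino 8 were called lower, where 2.16% of all probe sets tested were. With Chordin 4 were called higher and 3 lower, where 17.6% and 11.7% of all probe sets tested were. The median change of the 12 in that step was -0.37 (log2), and 7 of them were at background on both Chordin arrays. The snai1.S signal went from 431 and 480 to 1733 and 2060 there, so the summed signal does not stand for the list in that step. The summed signal of the 12 was 1499 to 1998 in uninjected caps and 2311 to 2820 in Chordin caps. It was 55906 to 62548 with Wnt3a and 17027 to 24230 with the morpholino. In morpholino caps the SoxB1 signals and the summed crest signal were therefore above those of uninjected caps. Of the 12 crest markers 9 were called higher in that comparison and none lower, where 20.9% and 15.3% of all probe sets tested were. The ets1.L signal went the other way, at 211 and 338 against 740 and 502 in uninjected caps. The snai2.S signals of the 2 groups overlapped. The crest calls lower in the last step were lost or became fewer when any 1 of the 4 arrays compared was left out. Calls over all probe sets, higher and lower, also fell in each of those fits. This loss is therefore not particular to crest markers, and the same limit applies to the lists below in that step. Calls over all probe sets likewise fell without any 1 of the arrays compared for Chordin, for Wnt3a and for morpholino against Chordin caps.

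Factors that act upstream of SoxB1 genes or bind DNA beside them were next examined. Of 23 measured symbols 18 passed the filter. With Chordin 11 were called higher and 2 lower, where 17.6% and 11.7% of all probe sets tested were. The 2 of 18 called lower is close to the latter share. The median change was 1.51 (log2). The zinc-finger gene zic2.L went from 49.7 and 67.3 to 7374 and 5485, and zeb2.S, a repressor downstream of BMP inhibition, rose at least 65.0-fold from background to 2346 and 1686. The 2 called lower were the POU factors pou5f3.1.L, from 7492 and 5086 to 587 and 316, and pou5f3.2.L, at -2.52. These are frog relatives of mammalian Oct4, which in Xenopus keep ectoderm uncommitted.

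With Wnt3a added, 1 of these 18 factors was called higher and 3 lower, where 3.08% and 2.74% of all probe sets tested were. The median change of the 18 was -0.25. Those called lower were both copies of otx2, a homeobox gene of forebrain and midbrain, and foxd4l1.1.S, a forkhead gene of the early neural plate. The otx2.L signal went from 4933 and 5992 to 27.6 and 114, a change of -6.45 ± 0.88 (log2, SE, limma adjusted p = 0.00968). The one called higher was zic1.S, at 2.15 (adjusted p = 0.0166). The zic2.L change was -0.31 (0.568), and its signal of 4592 and 5730 overlapped that of the Chordin caps. The count of factors called lower was 0 without replicate 1 and 1 without replicate 2 of the Chordin caps, and 2 without replicate 2 of the Chordin and Wnt3a caps. The zic1.S call was lost without either Chordin array and without replicate 2 of the Chordin and Wnt3a caps.

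With the morpholino 6 of these factors were called higher and none lower, where 2.73% and 2.16% of all probe sets tested were. The median change of the list was 0.97. The foxd4l1.1.S signal rose at least 16.8-fold to 532 and 415, and pou5f3.3.L rose by 4.09 ± 0.59 (log2, SE, limma adjusted p = 0.0238) to 348 and 334. The pou5f3.2.L signal was 101 and 97.9 without the morpholino and 696 and 835 with it. The otx2.L signal stayed low at 29.7 and 182, with a change of 0.37 (adjusted p = 0.840). The count called higher was 10 with the replicate number as a block, where 7.61% of all probe sets were called higher in the same fit. It was 0 without replicate 1 of the morpholino caps, 3 without replicate 2, 2 without replicate 1 of the Chordin and Wnt3a caps and 0 without replicate 2.

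Morpholino caps and Chordin caps, between which no SoxB1 probe set was called, differed in these factors. Of the 18, 7 were called higher and 2 lower in morpholino caps, where 6.12% and 5.26% of all probe sets tested were. Both otx2 copies were lower, otx2.L by -6.07 ± 0.88 (log2, SE, limma adjusted p = 0.0113) and otx2.S by -4.01 ± 0.56 (0.00967). The pou5f3.1.L signal was 4772 and 4960 in morpholino caps against 587 and 316, a change of 3.48 ± 0.39 (0.00483). The counts were 4 and 2 without replicate 1 of the morpholino caps. Without replicate 1 of the Chordin caps 4 were higher, without replicate 2 of them 3 were, and in neither case was any lower.

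Genes of neural progenitors, many of them regional homeobox genes or Notch effectors, formed the next list. Of 37 measured symbols 35 passed the filter. With Chordin 23 were called higher and 2 lower, where 17.6% and 11.7% of all probe sets tested were. The median change was 2.38 (log2). The eye-field genes rax.S and rax.L rose at least 171-fold and at least 135-fold from background, and the forebrain repressor hesx1.S rose at least 105-fold. The pax6.L signal, for a factor of the eye and forebrain, went from 44.9 and 31.5 to 8323 and 6140. The brightest genes not called were hes4.L and sall2.L, at 0.15 and -0.10. One gene was called lower, not 2, when any 1 of the 4 arrays was left out.

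With Wnt3a added 11 progenitor genes were called lower and 1 higher, where 2.74% and 3.08% of all probe sets tested were. The median change of the list was -0.98. The rax.S signal went from 6199 and 4399 to 7.59 and 1.06, at least 185-fold lower, and the log2 changes of hesx1.L and six3.L were -8.39 and -8.16. The single rise, of hes4.L at 0.78 (limma adjusted p = 0.0492), was not called when any 1 of the 4 arrays was left out.

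With the morpholino 6 progenitor genes were called higher and none lower, where 2.73% and 2.16% of all probe sets tested were. The median change of the list was 0.57. The pax6.L signal went from 48.3 and 52.6 to 2389 and 518, a change of 4.33 ± 0.64 (log2, SE, limma adjusted p = 0.0256). The Notch effectors hes5.1.L, hes5.2.L and hes5.5.S rose by 3.69, 3.36 and 2.86. The rax and six3 genes that had fallen with Wnt3a were not called in this step. The rax.S signal was 11.7 and 13.5, rax.L was 8.70 and 9.71 and six3.L was 20.1 and 20.9 in morpholino caps, all at background. The count called higher was 0 without replicate 1 of the morpholino caps or without either Chordin and Wnt3a array, and 7 without replicate 2 of the morpholino caps. Under poly-A spike-in scaling 5 genes were called higher and 5 lower, where 0.664% and 24.7% of all probe sets were.

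Between morpholino caps and Chordin caps 7 progenitor genes were called higher and 12 lower, where 6.12% and 5.26% of all probe sets tested were. The lower genes included rax.S at least 156-fold, rax.L at least 124-fold, six3.L at least 123-fold and hesx1.S at least 95.8-fold. All 7 higher genes were copies of hes5, a grouping made after their values were seen. They were led by hes5.1.L, which read 3230 and 1287 in morpholino caps and 37.4 and 76.5 in Chordin caps, a change of 5.11 ± 0.61 (log2, SE, limma adjusted p = 0.00576). Without replicate 1 of the morpholino caps 3 were higher and 12 lower, and the same counts were 2 and 6 without replicate 1 of the Chordin caps and 2 and 7 without replicate 2 of them.

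Genes of neuronal differentiation, which SoxB1 factors are known to hold in check, were examined in the same way. Of 25 measured symbols 15 passed the filter, and 15 of the 25 were at background on both uninjected arrays. With Chordin 3 were called higher and none lower, at a median of -0.08 (log2), where 17.6% and 11.7% of all probe sets tested were, and 3 of 15 is close to the former share. The neural tubulin tubb2b.S was among them at 1.53. With Wnt3a 2 were higher and 2 lower, where 3.08% and 2.74% of all probe sets were. With the morpholino 3 were higher and none lower, where 2.73% and 2.16% were. The Notch ligand dll1.L went from 235 and 144 to 3283 and 1190 with the morpholino, a change of 3.39 ± 0.57 (log2, SE, limma adjusted p = 0.0312). Between morpholino and Chordin caps 4 were higher and none lower, where 6.12% and 5.26% were, led by elavl3.L, for an RNA-binding protein of neurons, at 4.52 (adjusted p = 0.0146).

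The neuronal counts moved when single arrays were left out. With Chordin 1 gene was called higher without replicate 2 of the Chordin caps or without either uninjected array. With Wnt3a no gene was called higher without either Chordin and Wnt3a array, and 3 were lower without replicate 1 of them. With the morpholino no gene was called higher without replicate 1 of the morpholino caps or without either Chordin and Wnt3a array, and 2 were without replicate 2 of the morpholino caps. Between morpholino and Chordin caps no gene was called without replicate 1 of the morpholino caps, and 2 were without replicate 2 of the Chordin caps. With the replicate number as a block, 4 genes were higher with Wnt3a, where 4.90% of all probe sets were. In that fit 6 were higher and 2 lower between morpholino and Chordin caps, where 11.0% and 10.5% were.

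**Figure D4:**
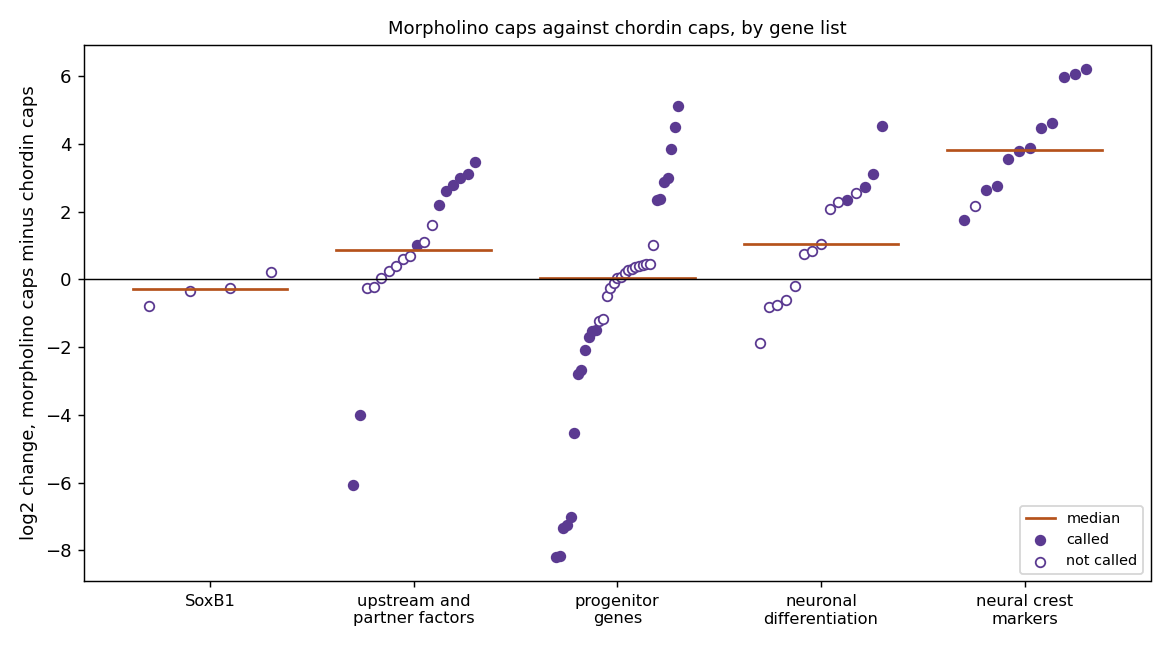
Change between morpholino caps and caps with Chordin alone, in log2(signal + 5.22), for the genes of 5 lists that passed the filter, each by its brightest probe set. Filled points were called by limma, open points were not, and lines are list medians, which were -0.29 for the 4 SoxB1 genes, 0.86 for upstream and partner factors, 0.04 for progenitor genes, 1.04 for neuronal genes and 3.83 for neural crest markers. All SoxB1 points are open, and each other list holds both filled and open points.

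Markers of other tissues moved with these steps as well. The 18 epidermis markers summed to 131022 and 150317 in uninjected caps and to between 32239 and 74781 on the other 6 arrays. With Chordin 9 were called lower and none higher, where 11.7% and 17.6% of all probe sets tested were. With Wnt3a 4 were called higher and none lower, where 3.08% and 2.74% were. The median change of the 18 in that step was -0.12 (log2), so these calls do not show a rise of the list. Their summed signal was 73593 and 32239 on the 2 Chordin and Wnt3a arrays. The absence of calls lower did not hold without replicate 1 of those caps. In morpholino against Chordin caps 4 were higher and none lower, where 6.12% and 5.26% of all probe sets tested were. The tfap2a.L signal, which does not stand for the list, was 3889 and 3640 in uninjected caps, 388 and 777 in Chordin caps and 7618 and 7557 with Wnt3a. None of the 18 was at background on both uninjected arrays. The 8 multiciliated cell markers summed to 14270 and 14359 in uninjected caps and to between 138 and 3159 elsewhere. Of these 7 passed the filter, and 5 were called lower with Chordin, where 11.7% of all probe sets tested were. Of 10 preplacodal markers 7 passed the filter. With Chordin 3 of them were called higher and 1 lower, where 17.6% and 11.7% of all probe sets tested were. The 1 of 7 called lower is near the latter share. Of 12 mesoderm and muscle markers 6 passed the filter, and none of these was called in any of the 3 steps with all 8 arrays. On both uninjected arrays 8 of the 12 were at background. The part of these tissues in the SoxB1 values was not tested.

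Without 1 of the arrays compared, the epidermis count lower with Chordin was between 4 and 6. The multiciliated count was 1 without replicate 1 of the uninjected caps, 3 without replicate 2 of them, 2 without replicate 1 of the Chordin caps and 5 without replicate 2 of them. The preplacodal marker called lower was lost without either uninjected array or replicate 1 of the Chordin caps. Calls over all probe sets, higher and lower, also fell in each of these fits, so the losses are not particular to these markers. Without replicate 2 of the morpholino caps 4 mesoderm markers were called higher with the morpholino, and 5 against Chordin caps. Against uninjected caps 1 of 6 was called higher in morpholino caps, tbxt.S at 4.06 (log2, limma adjusted p = 0.0322). This is near the share of all probe sets tested, 20.9%. The tbxt.S signal was 31.6 and 26.0 in uninjected caps and 2152 and 144 in morpholino caps. Its higher value was on replicate 1 of those caps, the array with high mesoderm markers.

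The genes whose pattern over the 8 arrays lay closest to each SoxB1 gene were found from the root mean square difference of log2 values centred on each probe set's mean. This is a description over 8 arrays that share their groups. The 3 sox2.L probe sets lay 0.125 to 0.322 from each other, and sox3.L lay 0.229 from sox3.S. The sox1.S profile lay 0.440 to 0.577 from the sox2.L probe sets and 0.676 to 0.752 from the sox3 copies, and sox2.L lay 0.642 to 0.952 from the sox3 copies.

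Outside the SoxB1 genes, pcdh8.L and pax2.L were the nearest to every member. The pcdh8.L gene encodes a protocadherin, a cell adhesion protein, and pax2.L a paired-box factor of the midbrain-hindbrain boundary, ear and kidney. The distance of pcdh8.L was 0.465 from sox1.S, 0.328 from sox2.L, 0.483 from sox3.L and 0.528 from sox3.S. The median distance of all named probe sets was 2.12, 2.19, 1.78 and 1.87 from these members. The pcdh8.L signal was 26.8 and 24.2 in uninjected caps, 751 and 824 in Chordin caps, 22.3 and 67.5 with Wnt3a and 578 and 644 with the morpholino. The pax2.L probe set nearest to sox1.S read 2.67 and 8.05, 414 and 635, 22.8 and 69.7, and 229 and 243 in the same order of groups. The pax2.L probe sets nearest to sox2.L and the sox3 copies read 1.11 to 11.8 in uninjected and in Chordin and Wnt3a caps. All these values were at background, so the pax2.L distances depend on the pseudocount. The sox1.S signals of 5.39, 4.51 and 9.65 were also at background. The pcdh8.L signals of 26.8, 24.2 and 22.3 lay near the backgrounds of their arrays, 28.7, 22.5 and 19.5. The sox1.S and pcdh8.L distances therefore depend on the pseudocount as well.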

How the data were processed

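Animal cap RNA was measured on 8 arrays, 2 in each of 4 groups taken from the sample labels. The deposited intensity of a probe set is a linear signal, made by the authors with MAS5 per the submitters' processing notes, which give no version. On each array the trimmed mean (2%) rounds to 500, and no further normalization was applied. The series text names both stage 9 and stage 15, and the later stage is used for collection.

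The 96 control probe sets were left out. Signals were transformed to log2(signal + 5.22), with the 10th percentile of all signals as pseudocount. Probe sets above the 40th percentile of their array on at least 2 arrays were kept, 22000 of 32539. Limma 3.58.1 in R 4.3.3 (lmFit, eBayes with trend and robust) fitted all 8 arrays with 4 residual degrees of freedom, and Benjamini-Hochberg adjustment ran within each of 6 comparisons. The script was tested on simulated data. Intervals are 95% from the same fit. Array number limits the precision. No sample column went unused.

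The background, the brightest of 23 negative controls, was defined with the values known. A fold against a group with neither array above it is written "at least N-fold", from the brighter group's mean against the higher of background and own signal on each array.

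Names came from the platform annotation, updated by gene number through a RefSeq table of Xenopus_laevis_v10.1, with 15394 entries matched. A single symbol was held by 15495 probe sets, several by 279 and none by 16765. No coordinates are given.

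The members and lists were chosen with earlier results of these data known. A list is counted by the brightest probe set of each symbol, up to 4 called members with the largest change and up to 2 uncalled brightest ones could be named, and all Sox genes could be. The 5 nearest profiles of each SoxB1 gene were taken by smallest distance. The labels name no pairing, and the main fit did not pair the arrays by replicate number. The correlation of replicate differences was 0.172 to 0.505 over the 6 pairs of groups. The replicate number was used as a block in 1 alternative alone. The gapdh 3' to 5' ratio was 1.26 to 1.41 on replicate 1 and 1.61 to 1.76 on replicate 2 arrays. Alternatives were quantile normalization, poly-A spike-in scaling (36 controls), a floor at background, pseudocounts of 1 and 32, no filter, only the arrays compared, the replicate block, and leaving out each array.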

Additional observations from a re-analysis of the deposited data

How the results depend on the processing

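Counts are of the 6 SoxB1 probe sets. The replicate block changed none of the SoxB1 calls, with all 6 lower with Wnt3a and all 6 higher with the morpholino. The count higher with the morpholino was 0 when only the arrays compared were fitted, and 0 to 5 when 1 array was left out. Higher in Chordin and Wnt3a than in uninjected caps were 4 with poly-A spike-in scaling and 0 to 4 with 1 array left out, and lower there 0 to 2. Lower in morpholino than in Chordin caps were 3 with spike-in scaling. For Chordin and Wnt3a against uninjected caps, sox3.L and sox3.S turned to 0.60 and 0.32 (log2) with spike-in scaling and ran from -0.86 to 0.60 and from -1.17 to 0.34 with 1 array left out. For morpholino against Chordin caps, sox3.S turned to -0.70 with spike-in scaling, and sox1.S ran from -0.86 to 0.19 with 1 array left out. The cause was not tested. A group left with 1 array was assumed to vary like the others. With 2 arrays a group and sox1.S near background, its changes are the least precise of the 6.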

Other observations

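Of the other Sox genes with several probe sets, those of sox8.L and sox13.S gave changes of the same direction, but those of sox15.L differed. With Chordin only the brightest sox8.L probe set was called. With Chordin the brightest sox15.L probe set was called higher at 1.06 ± 0.22 (log2, SE, limma adjusted p = 0.0138), and the other 3 gave 0.23, 0.39 and 0.03, none of them called. With the morpholino the brightest gave -0.01, and the others were 2.30-fold, 2.10-fold and 1.60-fold higher, with none of the 4 called (adjusted p = 0.986, 0.0765, 0.0737 and 0.207). The count of sox15.L by its brightest probe set in the list of other Sox genes therefore holds for that probe set alone. The SoxD gene sox13.S rose with Chordin by 2.56 ± 0.28 and 2.78 ± 0.36 on its 2 probe sets and was not called with Wnt3a or with the morpholino.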
